A study of Homo sapiens with 48 samples.

Results

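The response of AMO1 myeloma cells to silencing of IRE1 was compared between 2 clones, clone 1 and clone 3, at 72 h of doxycycline. The members were the 12 libraries labelled shIRE1 clone 1 or clone 3 at 0 or 72 h, of 48 libraries in the series and 24 from the shIRE1 clones, with 3 libraries in each of 4 groups. The quantity read for every gene was the log2 change from 0 to 72 h in clone 3 minus that in clone 1, termed the difference below, so that a positive difference marks a gene that rose more or fell less in clone 3. AMO1 is an established line of tumor plasma cells from a plasmacytoma. Each clone is labelled AMO-1 IRE1 sh7,8,9, which places shRNAs against the gene of IRE1, ERN1, under the control of doxycycline. The 0 h libraries had no treatment and the others received 0.2 ug/ml doxycycline, for hours given by the treatment labels (the sample titles write the same numbers as days). Each arm is a single clone of this line, so what belongs to the clone and what belongs to the depth of silencing cannot be told apart. The non-targeting control cells are not analysed here, and an effect of doxycycline alone is thus part of every change. Nothing in the labels says that the 3 libraries of a group came from separate cultures, and p-values therefore measure only the spread between these libraries.

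IRE1 is a kinase and endoribonuclease of the endoplasmic reticulum (ER) membrane. When unfolded proteins accumulate, it splices the XBP1 mRNA, and the encoded factor XBP1s raises genes for folding, glycosylation, transport and disposal of secretory proteins. Plasma cells, which secrete large amounts of antibody, rely on this arm of the unfolded protein response, alongside the PERK arm, in which ATF4 raises genes of amino acid supply and stress.

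The labels of the clones were checked first, because several genes followed a pattern over time that did not go with them. Genes were sought for which every clone 3 library at 0 and 24 h lay at least 2-fold above, or at least 2-fold below, every clone 1 library at 0 and 24 h. There were 11 such genes, 7 of them higher in clone 3, set by 12 libraries. This search, and the genes it named, were chosen after the values had been seen. LAMB4, a laminin subunit, had 1.85, 1.22 and 1.28 CPM (read counts scaled by TMM to a common library size) in clone 1 at 0 h and 35.1, 40.6 and 40.8 CPM at 24 h. It had no count in any clone 3 library at 0 or 24 h, where 3 counts would have given at most 0.138 CPM. In the libraries labelled clone 1 at 72 h it again had no count, and in those labelled clone 3 at 48 h it had 56.5, 54.4 and 61.2 CPM. LAMB4 was thus without counts under both labels at 72 h and abundant under both labels at 48 h.

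TENM3, a teneurin adhesion receptor, stood at 10.7, 9.87 and 8.99 CPM in clone 1 at 0 h and 0.609, 0.918 and 0.807 CPM in clone 3 at 0 h. The libraries labelled clone 1 at 72 h held 1.84, 1.77 and 1.72 CPM, and those labelled clone 3 at 48 h held 18.9, 17.2 and 16.9 CPM. Its 72 h libraries of both labels therefore lay nearer to clone 3 at 0 h, and its 48 h libraries of both labels nearer to clone 1. WAS, the actin regulator of blood cells, ran the other way in level. It had 1.77, 2.40 and 2.32 CPM in clone 1 and 7.07, 7.67 and 6.80 CPM in clone 3 at 0 h. It had 7.13, 6.57 and 7.16 CPM in the libraries labelled clone 1 at 72 h. On a scale from 0, the level of clone 1, to 1, that of clone 3, the median position over the 11 genes was 0.996 to 1.10 in the 3 libraries labelled clone 1 at 72 h, with 11 of 11 genes nearer to clone 3 in each. It was -0.13 to 0.03 in the libraries labelled clone 3 at 48 h, with 1 of 11 nearer to clone 3. The libraries labelled clone 1 at 48 h (-0.05 to 0.09) and clone 3 at 72 h (1.00 to 1.04) went with their labels. With a gap of 0.5 on the log2 scale there were 22 such genes, and 18 to 19 of them lay nearer to clone 3 in the libraries labelled clone 1 at 72 h.

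**Figure D1:**
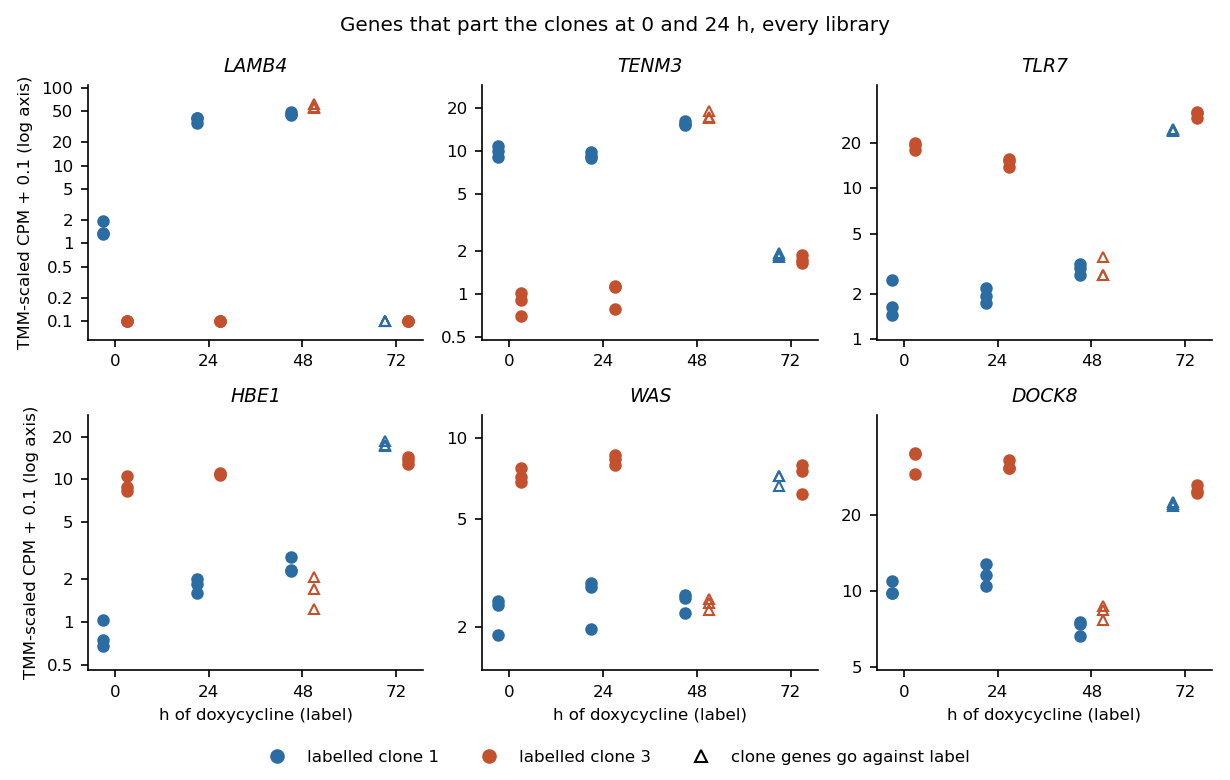
Levels of 6 of the 11 genes that part the clones at 0 and 24 h in every shIRE1 library, against the labelled hours of doxycycline (TMM-scaled CPM + 0.1, log axis; points are libraries, blue labelled clone 1, red labelled clone 3). Open triangles mark the libraries labelled clone 1 at 72 h and clone 3 at 48 h, which lie with the other clone for each gene shown.

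Over all genes the late libraries paired by label. The libraries labelled clone 1 at 72 h correlated on average at 0.992 with those labelled clone 1 at 48 h, at 0.987 with those labelled clone 3 at 72 h and at 0.985 with those labelled clone 3 at 48 h (log2 CPM over genes, and genes are no replicates). Those labelled clone 3 at 48 h correlated at 0.991 with those labelled clone 3 at 72 h. These pairs do not tell the labels from an exchange of the libraries labelled clone 1 at 72 h and clone 3 at 48 h, since after such an exchange each pair would hold both clones at the same hours. The groups were kept as labelled, because groups come from the labels alone, and an exchange was not tested. If it had taken place, the hours would be wrong as well as the clone, and each 72 h difference would set clone 3 at 72 h against libraries of clone 3 at 48 h, with the 0 h libraries of clone 1 as their start. Every 72 h difference given here rests on the 3 libraries labelled clone 1 at 72 h. Most results are therefore set beside the same difference at 24 h, which uses none of the late libraries. Results given for 72 h alone lack that comparison. The 24 h and 72 h differences share the 0 h libraries and are not independent of each other. The 11 genes were set in part by the 24 h libraries and cannot check their labels. At 10 genes set in the same way by the 0 h libraries, clone 1 at 48 h and clone 3 at 72 h, the 24 h libraries went with their labels, at median positions of 0.0549 to 0.170 in clone 1 (0 of 10 genes nearer to clone 3) and 1.02 to 1.07 in clone 3 (10 of 10). At 257 genes set by the 6 libraries at 0 h alone, the treated libraries of every group lay between the clones, at 0.475 to 0.744, so that these genes did not place them. Clone 3 replicate 1 at 24 h correlated at up to 0.993 with clone 1 at 24 h and at no more than 0.991 with its own group.

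Total counts were 23300589 to 34569637 in the 12 libraries, and libraries of a group correlated at 0.992 to 0.996. Mitochondrial genes held 2.90 to 3.83% of counts in clone 3 at 0 h and 4.07 to 4.65% in the other 3 groups. All 14 plasma-cell markers passed the filter on low counts, at a summed level of 16499 to 21522 CPM at 0 h and 9458 to 12029 CPM at 72 h. None of 14 myeloid markers passed, with summed levels of 0.184 to 0.964 CPM. Of 15 epithelial and stromal markers 6 passed, at a sum of 2.07 to 12.8 CPM, highest in clone 3 at 72 h. Of 15 T and NK markers 9 passed (313 to 346 CPM) and of 12 mature B-cell markers 7 (92.3 to 120.1 CPM). Their part in the results was not tested.

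By the labels, 5508 of 16883 genes tested (32.6%) differed in their 72 h response at an adjusted p below 0.05 (edgeR quasi-likelihood test, Benjamini-Hochberg adjustment, used throughout). Of these, 2637 (15.6%) had a higher response in clone 3 and 2871 (17.0%) a lower one, and 1169 differed at least 2-fold. The change from 0 to 72 h itself was called for 10190 genes (60.4%) in the libraries labelled clone 1 and for 10593 (62.7%) in clone 3. Of the different responses, 2635 were larger in clone 3, 2140 were larger in clone 1 and 664 (3.93%) went in opposite directions. The clones already differed at 7736 genes (45.8%) before doxycycline. At 72 h the groups labelled clone 1 and clone 3 differed at 3052 (18.1%), and at 48 h at 5063 of 17368 (29.2%). Of the 5508 genes with a different response, 3615 (65.6%) differed between the clones at 0 h and not at 72 h. Another 614 differed at 72 h and not at 0 h, 968 at both times and 311 at neither. Most different responses were thus gaps at 0 h that were no longer called at the labelled 72 h. These counts rest on the libraries labelled clone 1 at 72 h, whose clone genes went with clone 3. Whether the clones themselves drew closer was not tested. Without the libraries labelled clone 1 at 72 h, the difference at 24 h was called for 5335 of 17058 genes (31.3%), 2642 higher (15.5%) and 2693 lower (15.8%). At 24 h the balance was the other way, with 1542 responses larger in clone 3 and 2943 larger in clone 1. With clone 1 at 48 h in place of 72 h the difference was called for 5284 of 17076 (30.9%), a comparison in which the hours of doxycycline differ between the clones. There 2442 were larger in clone 3 and 2157 in clone 1. Without clone 3 replicate 1 at 24 h the 24 h difference was called for 6211 of 17491 genes, and the genes that differed between the clones at 24 h itself numbered 3583 in place of 423. The number of genes that differed between the clones at 72 h moved with 3 libraries, to 1844 and 1927 genes without replicate 2 or 3 labelled clone 1, and 1953 without clone 3 replicate 1.

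**Figure D2:**
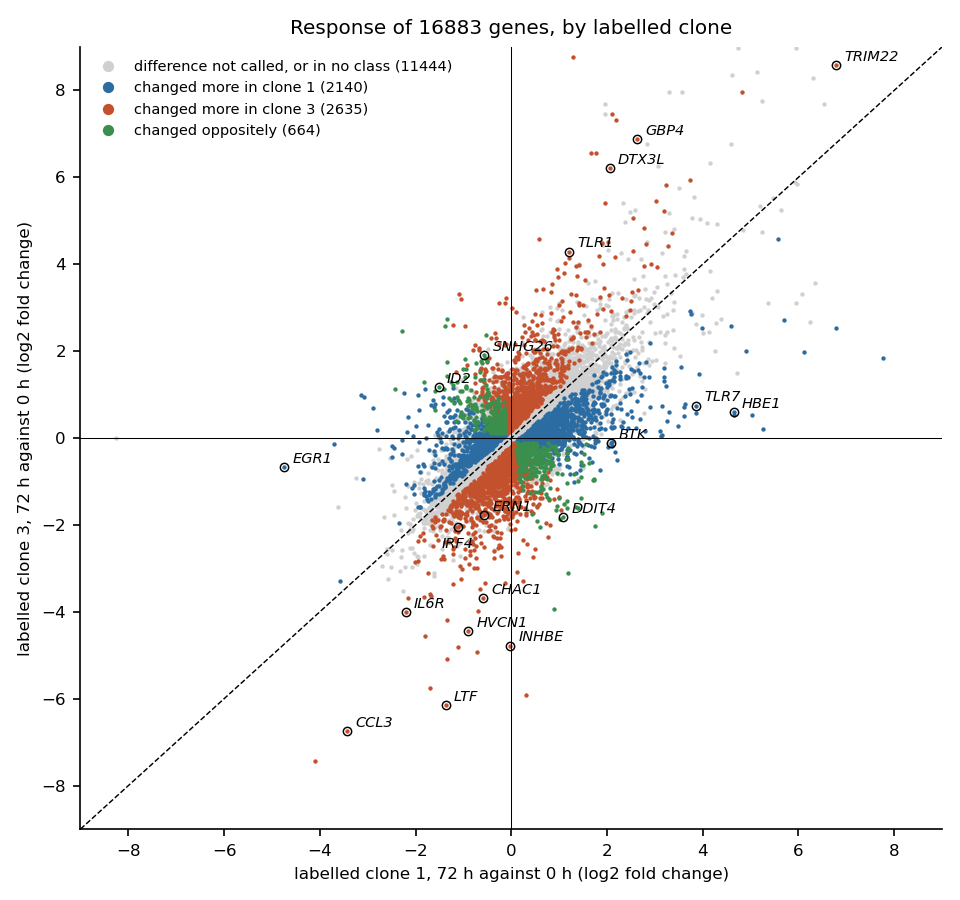
Log2 change from 0 to 72 h in the libraries labelled clone 1 (horizontal) and clone 3 (vertical) for 16883 genes, with named genes circled and the dashed line marking equal change. Colours give the 2635 genes that changed more in clone 3, the 2140 that changed more in clone 1 and the 664 that changed oppositely. INHBE and CCL3 lie far below the line and GBP4, DTX3L and EGR1 far above it.

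ERN1, the target of the shRNAs, started far higher in clone 3 and ended closer to clone 1, though still above it. In clone 1 it had 161, 158 and 163 CPM at 0 h and 129.7, 131 and 133 CPM at 24 h, and the libraries labelled clone 1 at 72 h had 107, 103 and 106 CPM. In clone 3 it had 436, 470.3 and 464 CPM at 0 h, 149, 150.1 and 153 CPM at 24 h and 127, 130.2 and 130.3 CPM at 72 h. Every treated library lay below the 0 h libraries of its own clone. Clone 3 lay above the clone 1 label without overlap at 0, 24 and 72 h. The difference at 72 h was -1.21 ± 0.06 (SE, adjusted p = 2.43e-09), and at 24 h it was -1.31 ± 0.07 (SE, adjusted p = 2.78e-09). ERN1 thus fell more in clone 3 also without the libraries labelled clone 1 at 72 h. Annotated transcripts on the opposite strand overlap ERN1 exons, and the use of strand in counting is not given in the sources used here.

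Among the XBP1s targets and the ER secretory machinery, 12 of 63 genes tested were called higher in clone 3 and 28 lower, with a median difference of -0.18 (median 0.00 over all genes). At 24 h the counts were 12 higher and 25 lower of 63, median -0.18 (median -0.01 over all genes). Over all genes 15.6% were called higher and 17.0% lower at 72 h, and 15.5% and 15.8% at 24 h. These are the shares to set beside each count of list members below. From 0 to 72 h, 57 of the 63 fell under the clone 1 label and 59 in clone 3. At 0 h 29 were higher in clone 3 and 17 lower. EDEM1, which removes misfolded glycoproteins from the ER, had 285, 268 and 272 CPM in clone 1 and 783, 791 and 775 CPM in clone 3 at 0 h. It reached 218, 211 and 212 CPM in clone 1 and 250.0, 263 and 274 CPM in clone 3 at 24 h. At 72 h it had 169, 170.1 and 173 CPM under the clone 1 label and 201, 201 and 214 CPM in clone 3. Clone 3 lay above the clone 1 label without overlap at 0, 24 and 72 h. EDEM1 fell more in clone 3, by a difference of -1.24 ± 0.06 (SE, adjusted p = 1.92e-09) at 72 h and -1.21 ± 0.07 (SE, adjusted p = 8.84e-09) at 24 h.

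The chaperones HSPA5, the ER member of the HSP70 family, and CALR, a lectin chaperone, ran the other way. HSPA5 had 1837, 1882 and 1864 CPM in clone 1 at 0 h, 738, 767 and 736 CPM at 24 h and 482, 497 and 482 CPM under the 72 h label. In clone 3 it had 779, 821 and 857 CPM at 0 h, 649, 648 and 650.4 CPM at 24 h and 454, 465 and 464 CPM at 72 h. Clone 1 at 0 h stood above every other group, and at 24 and 72 h clone 3 lay below the clone 1 label without overlap. The difference was 1.11 ± 0.06 (SE, adjusted p = 4.47e-09) at 72 h and 0.98 ± 0.07 (SE, adjusted p = 5.29e-08) at 24 h, a smaller fall in clone 3. CALR gave 1.20 and 1.01, having changed by -1.21 under the clone 1 label and by -0.01 in clone 3 at 72 h. XBP1 itself, the mRNA that IRE1 splices, differed by -0.44 at 72 h (adjusted p = 0.00119) and by -0.22 at 24 h (adjusted p = 0.0721), so that its call did not hold at 24 h. TXNDC5, a protein disulphide isomerase whose exons overlap neighbouring genes, gave -1.98 at 72 h and -0.75 at 24 h (adjusted p = 0.0992).

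The promoter of HSPA5 is shown because it holds the ER stress response element, CCAAT and CCACG with 9 bases between them, to which factors of the unfolded protein response bind. The letters, searched on both strands, stood in 0.0769% of 35116 RefSeq promoters of the same length and in 8 of 56 matched list members (14.3%), of which 5 were called and whose median difference was 0.24. The window runs across the start of the gene (RefSeq, GRCh38.p14, chr9:125241294-125241593, - strand), and the capitals mark the match.
HSPA5: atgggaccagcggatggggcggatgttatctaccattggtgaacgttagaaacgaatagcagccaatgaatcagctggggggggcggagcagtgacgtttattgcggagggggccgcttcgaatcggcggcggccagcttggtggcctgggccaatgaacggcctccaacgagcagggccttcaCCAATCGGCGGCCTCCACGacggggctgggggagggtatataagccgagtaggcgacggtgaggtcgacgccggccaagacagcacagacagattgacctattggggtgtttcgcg

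The ATF4 and integrated stress response genes formed the group with the lowest median. 0 of 37 genes tested were called higher in clone 3 and 30 lower, with a median difference of -0.79. At 24 h the counts were 1 higher and 27 lower of 37, median -0.57. Before doxycycline 33 of the 37 were higher in clone 3 and none was lower. INHBE, an activin subunit raised by ER stress and not on the list, had 10.1, 7.98 and 8.50 CPM in clone 1 and 151, 144 and 145 CPM in clone 3 at 0 h. At 24 h it had 13.1, 14.6 and 16.3 CPM and 28.5, 31.9 and 33.5 CPM. By 72 h it had 9.50, 8.09 and 7.92 CPM under the clone 1 label and 5.22, 5.88 and 4.45 CPM in clone 3. The high values were those of clone 3 at 0 h alone, and all later clone 3 libraries lay below them. Its difference was -4.76 ± 0.15 (SE, adjusted p = 6.46e-11) at 72 h and -2.96 ± 0.13 (SE, adjusted p = 7.52e-10) at 24 h.

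CHAC1, which degrades glutathione, had 6.23, 7.21 and 7.08 CPM in clone 1 and 53.6, 46.1 and 52.1 CPM in clone 3 at 0 h. By 24 h it stood at 7.99, 10.5 and 8.41 CPM and 10.7, 12.4 and 14.9 CPM. At 72 h it stood at 4.87, 4.40 and 4.12 CPM under the clone 1 label and at 3.97, 4.53 and 2.92 CPM in clone 3. Clone 3 at 0 h was again the only high group among these. The difference was -3.10 ± 0.18 (SE, adjusted p = 1.59e-08) at 72 h and -2.38 ± 0.17 (SE, adjusted p = 1.11e-07) at 24 h. DDIT4, an inhibitor of mTORC1 signalling, changed oppositely. It had 22.2, 23.0 and 25.9 CPM in clone 1 and 188, 179 and 237 CPM in clone 3 at 0 h. By 24 h it had risen to 63.0, 69.4 and 64.7 CPM in clone 1 and fallen to 90.7, 93.7 and 98.5 CPM in clone 3. The 72 h libraries held 51.3, 50.0 and 45.6 CPM under the clone 1 label and 57.3, 67.9 and 42.0 CPM in clone 3. Its difference was -2.90 ± 0.20 (SE, adjusted p = 6.31e-08) and, at 24 h, -2.57 ± 0.13 (SE, adjusted p = 2.51e-09). CTH, of cysteine synthesis, gave -2.79 and -1.94, and PCK2, a mitochondrial enzyme of glucose supply, -1.83 and -1.41 at 72 and 24 h.

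The CHAC1 promoter is shown for the C/EBP-ATF response element TGATGNAAN, the site through which ATF4 acts with C/EBP factors. These letters stood, on either strand, in 3.61% of all promoters and in 13 of 32 matched members of the list (40.6%), of which 10 were called. The match is in capitals, on the opposite strand (RefSeq, GRCh38.p14, chr15:40953221-40953520, + strand).
CHAC1: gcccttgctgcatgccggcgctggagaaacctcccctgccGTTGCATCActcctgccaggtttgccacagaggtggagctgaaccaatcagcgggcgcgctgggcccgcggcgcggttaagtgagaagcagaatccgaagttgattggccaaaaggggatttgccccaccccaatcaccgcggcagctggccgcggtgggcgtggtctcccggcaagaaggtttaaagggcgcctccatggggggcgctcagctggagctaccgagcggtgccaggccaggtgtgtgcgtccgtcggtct

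Most called genes for heat shock proteins and ribosome biogenesis had a higher response in clone 3. Of the heat shock proteins, 15 of 22 genes tested were called higher in clone 3 and 1 lower, with a median difference of 0.39, and at 24 h the counts were 13 higher and 2 lower of 22, median 0.40. Before doxycycline 16 of the 22 were lower in clone 3 and 2 were higher. HSP90AA1, the inducible cytosolic HSP90, had 1830.1, 1838 and 1719 CPM in clone 1 and 660.0, 716 and 713 CPM in clone 3 at 0 h. In the 24 h libraries it had 393, 391 and 384 CPM and 352, 314 and 307 CPM. In the 72 h libraries it had 424, 434 and 426 CPM under the clone 1 label and 304, 309 and 352 CPM in clone 3. It fell in both, from a level in clone 1 that no other group reached, and the difference was 0.96 ± 0.08 (SE, adjusted p = 3.21e-07) at 72 h and 1.10 ± 0.08 (SE, adjusted p = 1.19e-07) at 24 h. HSPH1, a nucleotide exchange factor for HSP70, changed by -0.41 under the clone 1 label and by 0.63 in clone 3, with differences of 1.03 at 72 h and 0.97 at 24 h. HSPA1B, an inducible HSP70 with a near-identical copy and therefore uncertain counts, was the exception, at -1.82 and -1.71.

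Of the ribosome biogenesis and MYC network genes, 26 of 49 genes tested were called higher in clone 3 and 2 lower, with a median difference of 0.36, and at 24 h the counts were 32 higher and 2 lower of 49, median 0.45. In the list 36 of 49 were lower in clone 3 before doxycycline. FTSJ3, which modifies pre-rRNA and whose exons overlap PSMC5, had the largest difference of its named members, 0.79 at 72 h and 0.84 at 24 h. NOP2, an rRNA methyltransferase, gave 0.76 and 0.91, and NHP2, of the H/ACA particles, 0.75 and 0.59. MYC did not pass at 72 h (0.12, adjusted p = 0.257) and was called at 24 h (0.58, adjusted p = 0.000165).

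The HSP90AA1 promoter is shown for the heat shock element, GAA, TTC and GAA with 2 bases between each, the site of heat shock factors, which stood on either strand in 0.49% of all promoters and in 7 of 20 matched heat shock genes (35%). Of those 7, 6 were called, with a median difference of 0.73. The match is in capitals, on the opposite strand (RefSeq, GRCh38.p14, chr14:102086995-102087294, - strand).
HSP90AA1: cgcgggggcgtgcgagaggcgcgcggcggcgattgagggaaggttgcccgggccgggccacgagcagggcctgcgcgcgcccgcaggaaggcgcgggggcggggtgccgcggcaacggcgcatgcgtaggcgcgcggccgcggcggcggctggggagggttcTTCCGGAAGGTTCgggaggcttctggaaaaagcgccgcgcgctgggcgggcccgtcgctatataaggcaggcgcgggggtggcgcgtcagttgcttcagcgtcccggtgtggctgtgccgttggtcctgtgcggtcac

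EGR1, an immediate-early factor of growth signalling, fell more under the clone 1 label. It had 117, 80.5 and 132 CPM in clone 1 and 6.58, 5.51 and 6.03 CPM in clone 3 at 0 h. The 24 h values were 30.7, 32.2 and 31.9 CPM in clone 1 and 34.0, 36.6 and 33.7 CPM in clone 3, a fall in the former and a rise in the latter. The 72 h libraries held 4.06, 4.30 and 3.56 CPM under the clone 1 label and 3.55, 4.09 and 3.49 CPM in clone 3, with overlapping ranges. The difference was 4.08 ± 0.26 (SE, adjusted p = 2.59e-08) at 72 h and 4.32 ± 0.20 (SE, adjusted p = 9.39e-10) at 24 h. The immediate-early and AP-1 genes, EGR1 included, were mixed, with 9 of 30 called higher and 7 lower at 72 h and 8 and 7 at 24 h. BTG2, an antiproliferative gene, gave -1.71 at 72 h and -1.68 at 24 h, and ZFP36, which promotes decay of cytokine mRNAs, -1.52 and -0.85.

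Among immune genes the largest differences ran in both directions. CCL3, a macrophage-attracting chemokine, had 43.2, 40.2 and 53.7 CPM in clone 1 and 224, 189.8 and 204 CPM in clone 3 at 0 h. After 24 h it had 25.1, 30.3 and 45.4 CPM and 26.5, 29.9 and 40.7 CPM, which overlapped. The 72 h values were 3.79, 4.19 and 4.44 CPM under the clone 1 label and 1.99, 2.11 and 1.46 CPM in clone 3. Its difference was -3.32 ± 0.20 (SE, adjusted p = 2.13e-08) at 72 h and -2.22 ± 0.25 (SE, adjusted p = 9.2e-06) at 24 h. CCL3-AS1 overlaps CCL3 on the opposite strand and cannot be told apart from it. HVCN1, a voltage-gated proton channel of B cells, gave -3.55 and -1.99, and LTF, lactoferrin, -4.78 and -2.47, both at 72 and 24 h. TLR1, a receptor for bacterial lipopeptides, rose instead: it had 0.366, 0.459 and 0.653 CPM in clone 3 at 0 h, 3.03, 2.66 and 2.65 CPM at 24 h and 8.26, 9.68 and 10.7 CPM at 72 h. In clone 1 it had 2.81, 2.76 and 2.66 CPM at 0 h and 2.88, 2.92 and 2.30 CPM at 24 h. Its difference was 3.09 ± 0.24 (SE, adjusted p = 2.15e-07) and, at 24 h, 2.49 ± 0.26 (SE, adjusted p = 4.99e-06). The log2 rise in clone 3 to 72 h was larger than the 72 h difference, so TLR1 also rose under the clone 1 label at 72 h, though less. In all, 7 chemokine and receptor genes of 36 were called higher and 9 lower at 72 h, against 4 and 11 of 34 at 24 h. TNFSF13B and ACKR3 were tested at 72 h and not at 24 h, both with positive differences, and TNFSF13B was among those called higher (2.05).

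ID2, an inhibitor of helix-loop-helix factors of the B lineage, changed oppositely at 72 h. It had 21.1, 22.6 and 22.4 CPM in clone 1 at 0 h, 4.66, 5.24 and 5.79 CPM at 24 h and 6.71, 8.09 and 7.68 CPM under the 72 h label. In clone 3 it had 5.97, 5.55 and 4.76 CPM at 0 h, 4.53, 4.50 and 4.71 CPM at 24 h and 11.7, 12.5 and 11.6 CPM at 72 h. All later clone 1 libraries lay below its 0 h libraries, while clone 3 at 72 h lay above its own. The difference was 2.70 ± 0.14 (SE, adjusted p = 3.88e-09) at 72 h and 1.84 ± 0.15 (SE, adjusted p = 4.46e-07) at 24 h. SNHG26, a snoRNA host gene, also changed oppositely, with differences of 2.48 at 72 h and 2.39 at 24 h. Of the 15 BCL2 family genes 1 was called higher and 6 lower at 72 h, against 3 and 6 at 24 h. BCL2L11, the death-promoting BIM, was the gene called higher at 72 h, at 0.91, and gave 0.26 at 24 h.

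**Figure D3:**
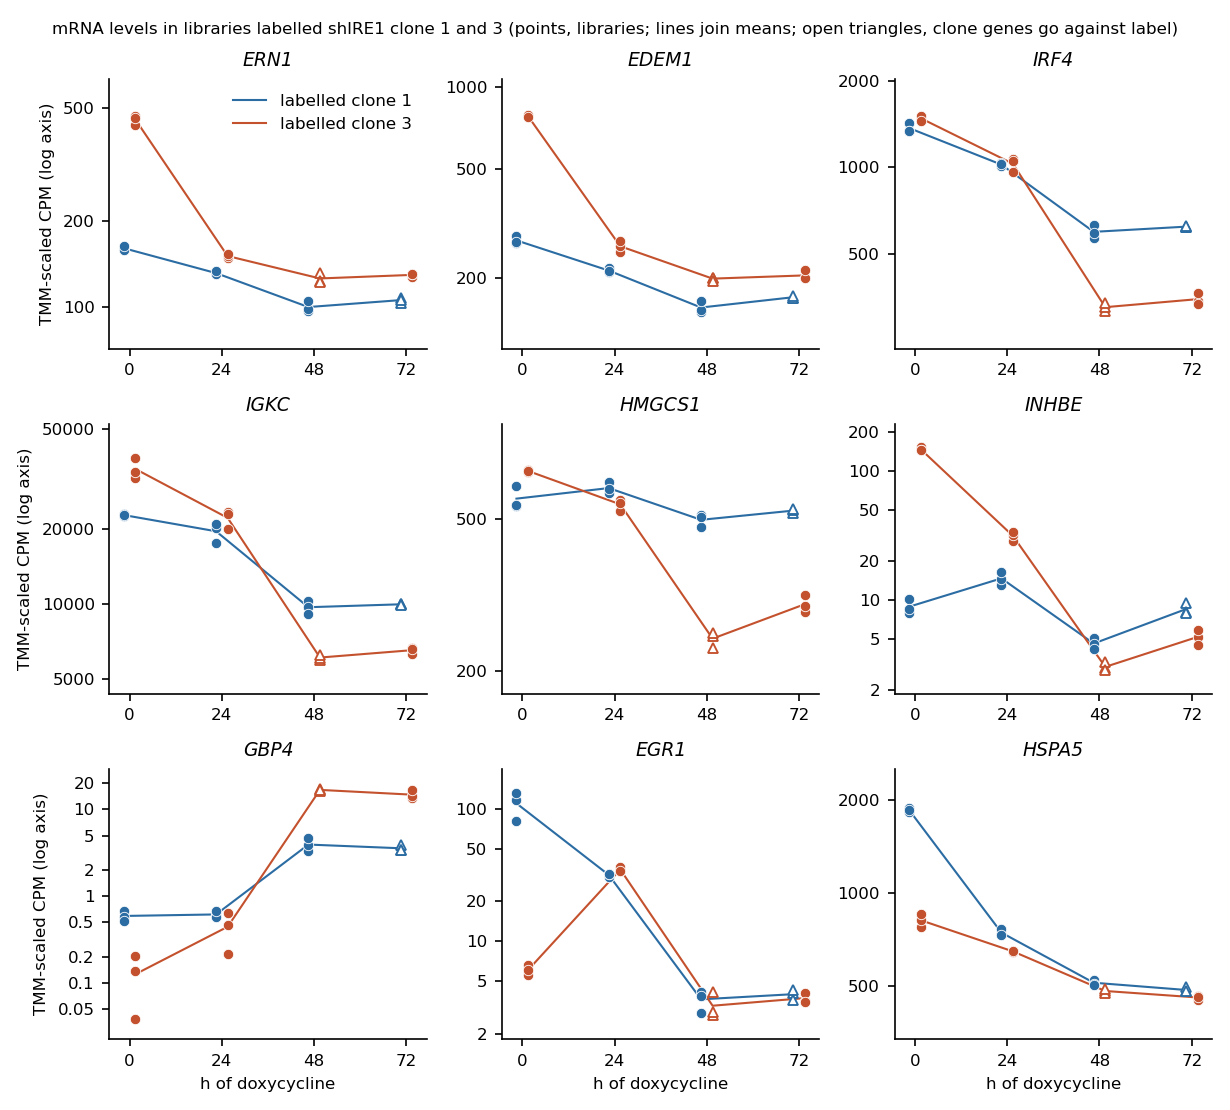
Levels of 9 genes in the 24 shIRE1 libraries by labelled clone and hours of doxycycline (TMM-scaled CPM, log axis; points are libraries, lines join group means). Open triangles are the libraries whose clone genes go against their label. ERN1, EDEM1, INHBE, EGR1 and HSPA5 have a wide gap at 0 h and a narrower one at 24 h, whereas IRF4, IGKC, HMGCS1 and GBP4 part further at the labelled 48 and 72 h.

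A further set of genes differed more at the labelled 72 h than at 24 h, and some of them, IRF4 included, were not called at 24 h. IRF4, a lymphoid factor that myeloma cells need to survive, had 1430.4, 1337 and 1341 CPM in clone 1 and 1486, 1509 and 1454 CPM in clone 3 at 0 h. At 24 h it had 1031, 1009 and 1024 CPM and 962, 1071 and 1053 CPM, which overlapped. After 72 h it had 620.3, 618 and 623 CPM under the clone 1 label and 341, 334 and 365 CPM in clone 3. The 48 h libraries held 629, 567 and 589 CPM under the clone 1 label and 315, 325 and 335 CPM under the clone 3 label. Both late groups labelled clone 3 lay below both labelled clone 1. With the libraries labelled clone 1 at 72 h and clone 3 at 48 h exchanged, the same values would instead set both clones high at 48 h and low at 72 h. The 72 h difference was -0.95 ± 0.06 (SE, adjusted p = 4.24e-08), and at 24 h it was -0.10 ± 0.07 (SE, adjusted p = 0.290). Clone and hours cannot be told apart in the late IRF4 levels, nor in those of the sterol and interferon-stimulated genes given next.

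Of the plasma-cell markers, 1 of 14 genes tested were called higher in clone 3 and 8 lower, with a median difference of -0.50, IRF4 included, and at 24 h the counts were 2 higher and 6 lower of 14, median -0.23. TNFRSF17, the receptor BCMA, had 194, 192 and 183 CPM in clone 1 and 318, 266 and 274 CPM in clone 3 at 0 h. By 24 h it had 144, 149 and 140.3 CPM and 128, 114 and 128 CPM. At 72 h it had 81.2, 82.7 and 77.6 CPM under the clone 1 label and 47.3, 48.1 and 51.7 CPM in clone 3. It was called at both times, with differences of -1.30 ± 0.09 (SE, adjusted p = 7.2e-08) and -0.82 ± 0.10 (SE, adjusted p = 1.21e-05). Of genes outside the list, IGKC, the kappa light chain constant region, gave -1.22 at 72 h and -0.43 at 24 h. IL6R, the interleukin-6 receptor, gave -1.80 at 72 h, whereas at 24 h it gave -0.22 (adjusted p = 0.0931).

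Of the sterol and fatty acid synthesis genes, 1 of 33 genes tested were called higher in clone 3 and 21 lower, with a median difference of -0.51, and at 24 h the counts were 3 higher and 11 lower of 33, median -0.14. HMGCS1, which makes HMG-CoA for cholesterol, had 609.8, 541 and 543 CPM in clone 1 and 663, 673 and 667 CPM in clone 3 at 0 h. In the 24 h libraries it had 623, 584 and 598 CPM and 561, 525 and 551 CPM. By 72 h it had 518, 526 and 532 CPM under the clone 1 label and 286, 295 and 316 CPM in clone 3, the lowest of these groups. The difference was -1.05 ± 0.07 (SE, adjusted p = 7.09e-08) at 72 h and -0.38 ± 0.08 (SE, adjusted p = 0.00123) at 24 h. INSIG1, which retains the sterol sensor in the ER, gave -1.65 and -1.10. FADS1, a fatty acid desaturase overlapping FADS2, gave -1.74 and -1.17 at 72 and 24 h.

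The counts for interferon-stimulated genes differed between the times. At the labelled 72 h, 18 of 39 genes tested were called higher in clone 3 and 5 lower, with a median difference of 0.38, whereas at 24 h the counts were 5 higher and 8 lower of 35, median -0.08. LGALS3BP, MX1, GBP1 and EPSTI1 passed the filter on low counts at 72 h and not at 24 h. Their 72 h differences were 2.10, 2.37, 5.50 and 0.38, and LGALS3BP and MX1 were among those called higher. These genes entered through the 72 h libraries, so their differences add no test. GBP4, an interferon-induced GTPase, had 0.683, 0.577 and 0.518 CPM in clone 1 and 0.203, 0.138 and 0.0384 CPM in clone 3 at 0 h. The 24 h values were 0.601, 0.572 and 0.679 CPM and 0.647, 0.472 and 0.216 CPM. In the 72 h libraries it had 3.91, 3.39 and 3.40 CPM under the clone 1 label and 13.5, 14.2 and 16.7 CPM in clone 3. The late libraries were the high ones under both labels, those labelled clone 3 highest, with 9 counts in all behind clone 3 at 0 h. The difference was 4.25 ± 0.41 (SE, adjusted p = 1.75e-06) at 72 h and 1.70 ± 0.62 (SE, adjusted p = 0.0470) at 24 h, or 1.40 (adjusted p = 0.0945) without clone 3 replicate 1 at 24 h. DTX3L, a ubiquitin ligase not on the list that partners with PARP9 and shares exons with it on opposite strands, gave 4.16 and 1.40. PARP14 gave 2.08 and 0.75 at 72 and 24 h. TRIM22, an antiviral ubiquitin ligase, gave 1.79 at 72 h and 0.47 at 24 h (adjusted p = 0.617).

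The GBP4 promoter is shown for the interferon-stimulated response element, GAAA and GAAA with 2 bases between them. On either strand these letters stood in 3.57% of all promoters and in 22 of 31 matched interferon-stimulated genes (71%), of which 11 were called at 72 h. LGALS3BP and MX1 were among the 11. The match is in capitals, on the opposite strand, across the start (RefSeq, GRCh38.p14, chr1:89198893-89199192, - strand).
GBP4: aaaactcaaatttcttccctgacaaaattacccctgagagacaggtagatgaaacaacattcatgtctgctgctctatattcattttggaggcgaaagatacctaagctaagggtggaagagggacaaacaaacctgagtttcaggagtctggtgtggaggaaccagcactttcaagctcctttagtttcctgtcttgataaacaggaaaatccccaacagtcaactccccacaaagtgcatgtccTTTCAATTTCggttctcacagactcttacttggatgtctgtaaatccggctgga

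**Figure D4:**
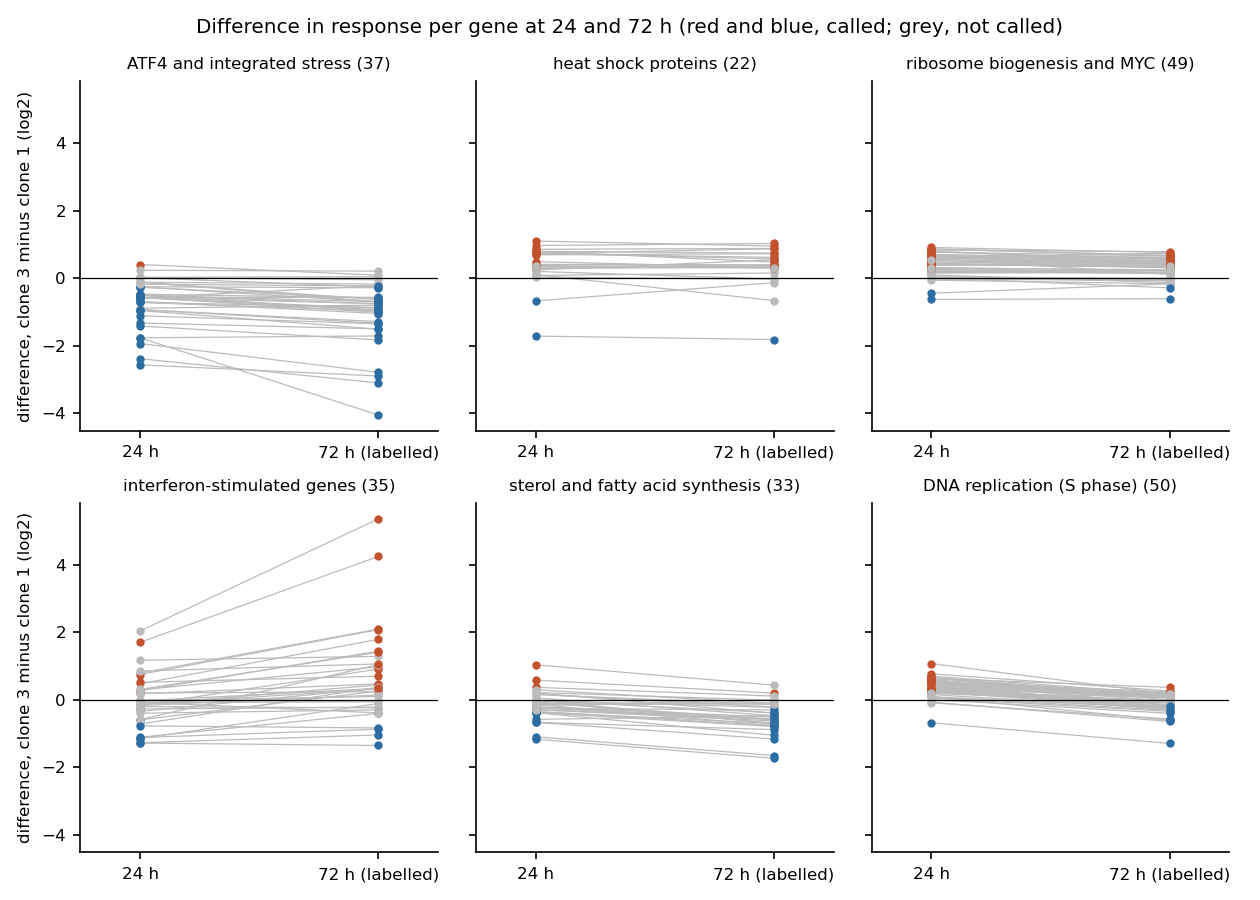
Difference in response (clone 3 minus clone 1, log2) at 24 h and at the labelled 72 h for each gene of 6 lists tested at both times; red and blue points were called, grey points were not. Called ATF4 genes lie mostly below 0 and called heat shock and ribosome biogenesis genes mostly above it at both times, while 36 of 50 DNA replication genes were called above 0 at 24 h and 5 at 72 h.

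Cell cycle genes differed more at 24 h than at 72 h in number called. Before doxycycline 38 of 50 DNA replication genes were called lower in clone 3 and 2 higher. Of 55 mitosis genes 38 were lower in clone 3 at 0 h and 0 higher. At the labelled 72 h 42 replication and 38 mitosis genes were lower in clone 3, and 0 of either list higher. DNA replication genes fell in 50 of 50 cases in clone 3 and 49 under the clone 1 label at 72 h. Of these, 5 of 50 genes tested were called higher in clone 3 and 14 lower, with a median difference of -0.04, but at 24 h the counts were 36 higher and 1 lower of 50, median 0.38. Mitosis genes, all 55 of them called lower at 72 h under each label, had 8 called higher and 10 lower in the 72 h difference, with a median of -0.02, and 30 higher and 1 lower of 55, median 0.29 at 24 h. In the 72 h difference 38% of replication and 32.7% of mitosis genes were called, beside 32.6% over all genes. The mitosis share was thus that of all genes. At 24 h 15.5% of all genes were called higher and 15.8% lower. E2F1, a driver of S phase entry, had 63.4, 63.4 and 66.7 CPM in clone 1 and 72.1, 64.7 and 65.9 CPM in clone 3 at 0 h. It had 21.2, 23.4 and 24.0 CPM in clone 1 and 24.7, 25.6 and 26.1 CPM in clone 3 at 24 h. The 72 h values were 34.5, 35.1 and 31.7 CPM under the clone 1 label and 23.6, 24.2 and 21.6 CPM in clone 3, which lay lower. Its difference was -0.61 ± 0.09 (SE, adjusted p = 0.000129) at 72 h and 0.09 ± 0.09 (SE, adjusted p = 0.494) at 24 h. UHRF1, which maintains DNA methylation, missed the call at 72 h (0.17) and passed it at 24 h (1.07, adjusted p = 0.00112), as did CDC25A, a phosphatase that activates cyclin-dependent kinases (0.13 and 0.65), and PRDM1, the plasma cell factor Blimp-1 (0.09 and 0.36).

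The 3 genes named for a larger rise under the clone 1 label, TLR7, HBE1 and BTK, had levels that went with the clone genes. TLR7, a receptor for single-stranded RNA, had 2.37, 1.54 and 1.35 CPM in clone 1 at 0 h, 2.07, 1.84 and 1.65 CPM at 24 h and 3.05, 2.55 and 2.85 CPM at 48 h, and the libraries labelled 72 h held 24.5, 24.7 and 24.0 CPM. In clone 3 it had 19.8, 19.3 and 18.0 CPM at 0 h, 15.7, 15.2 and 13.8 CPM at 24 h and 29.2, 31.7 and 32.1 CPM at 72 h, with 3.42, 2.55 and 2.57 CPM in those labelled 48 h. Its 72 h difference was -3.11 ± 0.17 (SE, adjusted p = 5.54e-09), and with clone 1 at 48 h in its place it was 0.01 (adjusted p = 0.982). HBE1, epsilon globin, which shares exons with HBG2, gave -4.04 at 72 h and -1.01 at 24 h. Unlike TLR7 and BTK it was called in all 23 alternatives, clone 1 at 48 h among them, with differences of -4.28 to -1.01. BTK, the B-cell receptor kinase, gave -2.20 and -0.28 (adjusted p = 0.0938) and, with clone 1 at 48 h, -0.05 (adjusted p = 0.804). TLR7 and HBE1 are among the 11 genes used for the check, so their values at 0 and 24 h are a description.

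The responses of surface antigens and adhesion molecules differed in both directions. Higher in clone 3 were the log2 responses of CR2, a complement receptor of B cells (0.85 at 72 h, and 0.28 at 24 h with an adjusted p of 0.244), and, chosen after values were seen, FCRL5, a receptor-like protein of B and plasma cells (0.62 at 72 h and 0.57 at 24 h), and the adhesion molecule ALCAM (0.62 and 0.71). Of 30 adhesion molecules and integrins tested, 7 had a higher and 9 a lower response in clone 3, and of 35 regulators and surface antigens of B and plasma cells 6 a higher and 11 a lower one. The shares over all genes were 15.6% higher and 17.0% lower. SLAMF7, a surface receptor of plasma cells, had 108, 98.1 and 91.0 CPM in clone 1 and 196, 195 and 199.8 CPM in clone 3 at 0 h. After 24 h it had 152, 149 and 149 CPM and 158, 142 and 153 CPM. After 72 h it had 145, 148 and 152 CPM under the clone 1 label and 88.2, 88.9 and 90.1 CPM in clone 3. SLAMF7 rose by 0.62 under the clone 1 label and changed by -1.11 in clone 3, with differences of -1.73 ± 0.08 (SE, adjusted p = 1.38e-09) at 72 h and -0.98 ± 0.09 (SE, adjusted p = 7.44e-07) at 24 h. CD28, a costimulatory receptor, gave -1.33 and -1.33, and GPRC5D, an orphan receptor of plasma cells, -1.32 and -0.47 at 72 and 24 h. ITGB7, an integrin chain of lymphocytes, gave -1.08 and -1.16, and SELPLG, a selectin ligand, -0.92 and -0.64. BCL2, which blocks cell death, gave -0.94 and -0.76. BMF, a death-promoting relative, gave -1.24 and -1.50, and HRK, another, -1.25 and -0.82.

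Metabolic genes were mixed. PDK1, which shuts pyruvate out of mitochondrial oxidation, changed oppositely, by 0.44 under the clone 1 label and -0.79 in clone 3, with differences of -1.23 at 72 h and -0.98 at 24 h. PFKFB3, which drives glycolysis, went the other way, at 1.02 and 0.84. PFKFB4, its relative, gave 0.92 at 72 h and 2.07 at 24 h. The mitochondrially encoded subunits MT-ND1 and MT-CYB gave 0.81 and 0.62 at 72 h and 0.81 and 0.61 at 24 h, beside the lower mitochondrial share of clone 3 at 0 h, whose part was not tested. SESN2, a stress-induced inhibitor of mTORC1, gave -1.35 and -1.11. WIPI1, of autophagosome formation, gave -1.46 and -1.28. SQSTM1, an autophagy receptor, gave -0.75 and -0.89, and HMOX1, heme oxygenase, 1.42 at 72 h and 0.52 at 24 h (adjusted p = 0.0991).

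Other groups moved less or in both directions at 72 h. Their counts stand beside shares over all genes of 15.6% higher and 17.0% lower at 72 h, and 15.5% and 15.8% at 24 h. Of the NRF2 and antioxidant genes 10 of 25 were called higher and 3 lower (9 and 3 at 24 h), SLC7A11, the cystine transporter, at -1.33 and -0.93 and NQO1, a quinone reductase, at 0.77 and 0.49. Of the p53 targets 13 of 29 were called higher and 5 lower, against 13 and 6 at 24 h. CDKN1A, the inhibitor p21, gave 0.31 and 0.49. Proteasome subunits were called higher in 7 of 30 and lower in 1, against 10 and 0 at 24 h. The respiratory chain had 1 higher and 7 lower of 43 nuclear genes, while 5 of 13 mitochondrially encoded genes were higher and none lower. Lysosome genes had 5 higher and 11 lower of 36. MHC class II genes, which rose in 12 of 13 cases under the clone 1 label and in 13 in clone 3, had 2 called higher and 2 lower. MHC class I genes had 6 higher and 7 lower of 19. Adhesion molecules had 7 and 9 of 30, NF-kappaB genes 5 and 7 of 26, and glycolysis genes 12 and 9 of 31. The G1 regulators had 5 and 3 of 21, ERK feedback genes 7 and 4 of 15, and B-cell and plasma-cell regulators 6 and 11 of 35. At 24 h the counts called higher and lower were 2 and 6 for nuclear respiratory genes and 6 and 0 for mitochondrially encoded ones. They were 4 and 13 for lysosome, 1 and 3 for MHC class II and 1 and 7 for MHC class I genes. Adhesion molecules had 5 and 10 of 29, NF-kappaB genes 5 and 7, and glycolysis genes 13 and 9. The adhesion gene CD82, called higher at 72 h (2.01), was not tested at 24 h. The G1 regulators then had 7 and 4, ERK feedback genes 5 and 3, and B-cell and plasma-cell regulators 5 and 8. Of 8 reported IRE1 mRNA cleavage targets 3 were higher and 2 lower, and BLOC1S1, the best known of them, gave -0.75 and -0.52 at 72 and 24 h. IKZF1, a lymphoid factor, gave 0.57 and 0.50, and IKZF3, its relative, -0.27 and -0.27. Exons of INHBE, HSP90AA1, HVCN1, NHP2, NOP2, TLR1, TRIM22, BLOC1S1, GBP4 and CALR overlap other annotated genes, so their counts are uncertain in the same way as those of ERN1. The same holds for EDEM1, ID2, SNHG26, HMGCS1, PDK1, PFKFB4, BCL2L11, BMF, WIPI1, SQSTM1, NQO1, SLC7A11, ITGB7, MTSS1, ARHGAP9 and others named here. MITF and CDK2 were not called at 72 h (-0.38 and -0.14).

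**Figure D5:**
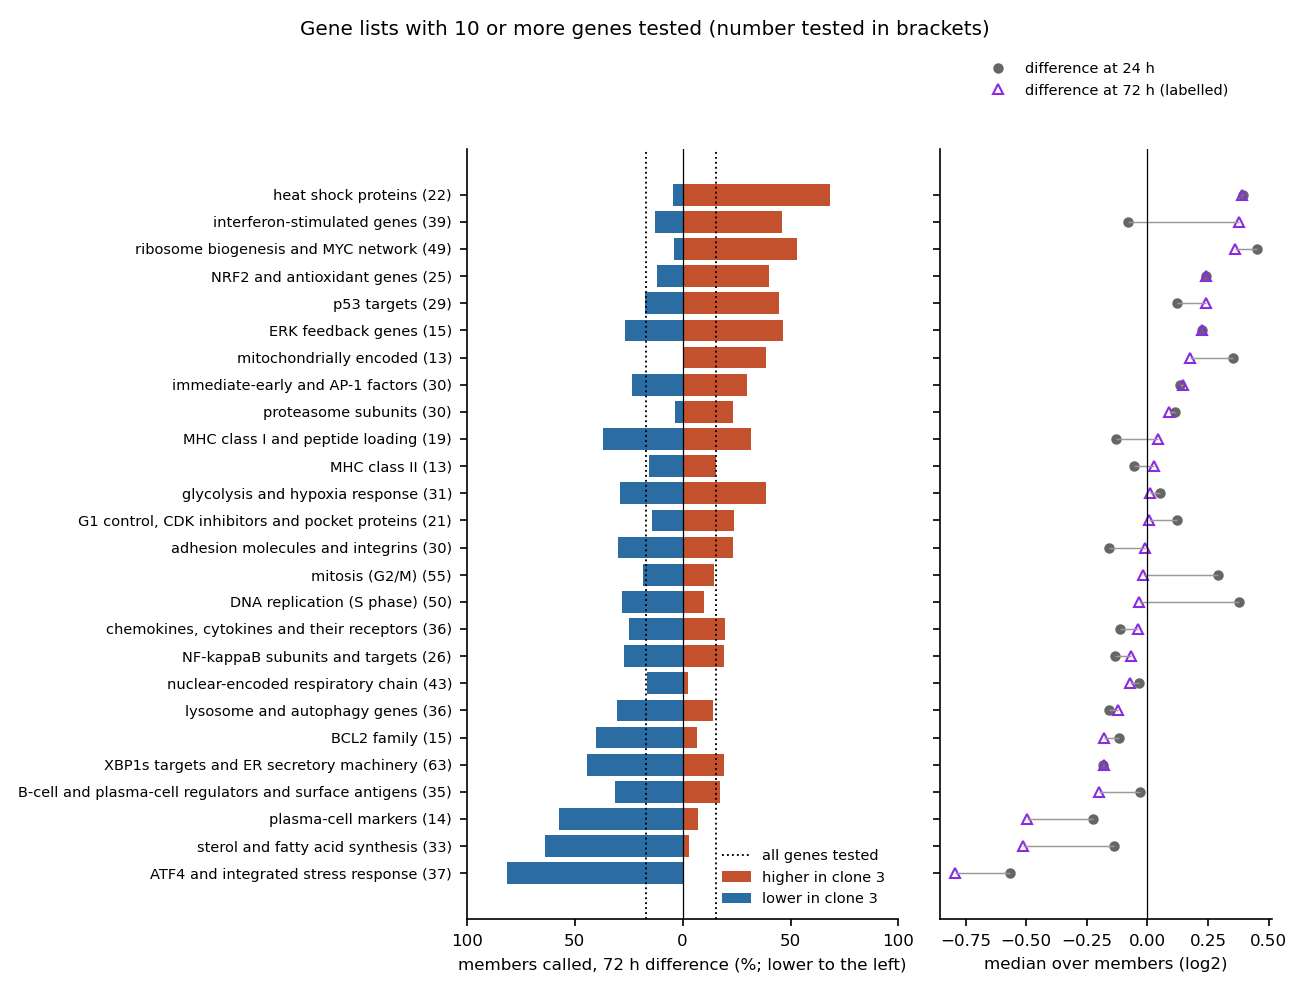
Gene lists with 10 or more genes tested: on the left the share of members called in the 72 h difference, higher in clone 3 to the right and lower to the left, with dotted lines at the 15.6% and 17.0% over all genes; on the right the median difference at 24 h (grey circles) and at the labelled 72 h (triangles). The ATF4 list is lowest and the heat shock list highest at 72 h, and the interferon, replication, sterol and mitosis lists move most between the times. Of the interferon list 39 genes were tested at 72 h and 35 at 24 h.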

How the data were processed

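The members and gene lists were chosen with earlier results of these data known. Poly(A) RNA was sequenced with a stranded kit as single-end reads of 50 bases. The authors deposited raw read counts per gene, in a table for all 48 libraries, and a table of log2 CPM values. The submitters' processing notes list GSNAP 2013-10-10, R 4.1.3, edgeR 3.32.1, limma 3.46.0 and GRCh37/hg19. The use of strand in counting is not given in the sources used here, so overlapping and antisense genes are uncertain. The deposited log2 table equals what edgeR gives as log2 CPM at prior count 2, and it served only as an alternative.

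Counts of the 12 libraries were filtered with filterByExpr (minimum count 10, minimum total 15), TMM-scaled and fitted without covariates with edgeR 4.0.16 (R 4.3.3) as 4 groups. The difference was the interaction of clone and time, tested with the quasi-likelihood test and adjusted by Benjamini-Hochberg over all genes tested, and a call is an adjusted p below 0.05. Levels are CPM with TMM factors of the 24 shIRE1 libraries. Total counts ran from 23300589 to 34569637. The mean chi-square per gene between libraries of a group was 1.92 to 20.4, at genes with at least 50 counts in a pair. Spread between libraries beyond the sampling of reads thus entered the precision. The highest value was between replicates 1 and 3 of clone 3 at 0 h. The script was tested on simulated data.

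Named genes were a panel of 13, the genes with the largest differences among called genes with a mean log2 CPM above 2 and no overlap between times (6 in each direction for larger changes in clone 3 and for opposite changes, 3 for larger changes in clone 1), and up to 4 called members of each of 32 lists. Overlaps came from GENCODE 44, to which 98.7% of gene IDs matched. Alternatives used DESeq2 1.42.0, limma 3.58.1, other scaling, filters and libraries, and each library left out in turn. The checks of clone genes, those set without 24 h libraries included, and the comparisons at 24 h and with clone 1 at 48 h were added after seeing the data. Other shRNA lines were used only in the alternative with all 48 libraries.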

Additional observations from a re-analysis of the deposited data

Results flagged for a closer look

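The results here are those in which the clones' responses differed by the test of the difference itself, and all rest on the libraries labelled clone 1 at 72 h, whose clone genes went with clone 3. In number they were 5508 genes with a different response and 664 with opposite changes. Among genes called lower in clone 3, with the larger change there, the differences were -4.78 for LTF, -4.76 for INHBE, -3.55 for HVCN1, -3.32 for CCL3, -3.32 for CCL3-AS1 and -3.20 for CTNNA2, a catenin. Those called higher were GBP4 at 4.25, DTX3L at 4.16, TLR1 at 3.09, MT-TP, a short mitochondrial tRNA, at 2.60, LINC00861 at 2.22 and PARP14 at 2.08.

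Of opposite changes, the lower differences were -2.90 for DDIT4, -2.65 for the pseudogene RPL37P6, -2.63 for AC010719.1, -2.58 for SCN4A, -2.44 for ARHGAP9 and -2.37 for TEX19. The higher were 2.91 for AC112907.3, which overlaps EIF4A2, 2.70 for ID2, 2.48 for SNHG26, 2.42 for AC010761.1, which overlaps RPL23A, 2.11 for MTSS1 and 1.63 for AC016876.2, which overlaps EIF4A1. With the larger change under the clone 1 label, EGR1 had 4.08, DHRS2 2.10, ZNF850 1.61, HBE1 -4.04, TLR7 -3.11 and BTK -2.20. At 24 h, LINC00861 (0.93, adjusted p = 0.456), RPL37P6 (-1.21, adjusted p = 0.220), TLR7 and BTK were not called, by edgeR with Benjamini-Hochberg adjustment, and the others were.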

How the results depend on the processing

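Over 23 alternatives, genes with a different response numbered 4547 to 6330 against 5508, and 4547 to 6105 when each library was left out in turn. DESeq2 gave 4914, limma on the log2 values 5429, RLE scaling 5380 and no filter on low counts 5449. The fit with the replicate block gave 4906. Same-numbered libraries did not deviate together (correlations of -0.256 to 0.158, 2 of 18 over 0.1). That check cannot tell whether they shared a culture or a preparation. Genes that differed between the clones at 72 h numbered 3052 and ranged from 1844 to 4039 with a library left out. The 24 h and 48 h alternatives were chosen after seeing the data. With 24 h in place of 72 h in both clones, 423 genes differed between the clones at that time and 1542 changed more in clone 3, or 3583 and 2188 without clone 3 replicate 1 at 24 h. Genes that changed more in clone 1 then numbered 2943, or 2955 without that library. The difference turned to 0.14 for CDK2 and 0.091 for E2F1, or 0.13 and 0.10 without clone 3 replicate 1 at 24 h. With clone 1 at 48 h in place, TLR7 turned to 0.0091. On the linear scale HLA-DQA1 turned to 8.90 CPM. Of 3266 results for single genes under an alternative, 3181 kept direction and side of the threshold, 69 lost the call, 11 gained it and 5 turned. The causes were not tested. Low counts limit GBP4 (9 counts in all) and LINC00861 (21) in clone 3 at 0 h and LTF (27) in clone 3 at 72 h.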
